A study of Homo sapiens with 9 samples.

Results

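A set of 9 genes of the fibroblast growth factor (FGF) family was followed across 3 culture conditions of a human embryonic stem cell line: FGF2, FGF4, FGF7, FGF8, FGF10, FGF13, FGF17, FGF18 and FGF19. Their probe sets were taken where the array annotation gave that gene as the only symbol, which held for 9 of 33297 probe sets, 1 for each gene, among 18417 genes with a single symbol. RefSeq places FGF2 on chromosome 4, FGF10 and FGF18 on 5, FGF17 on 8, FGF8 on 10, FGF4 and FGF19 on 11, FGF7 on 15 and FGF13 on X. The cells were H9-TCF7L1, made from the widely used H9 line by adding a TCF7L1 transgene that doxycycline (Dox) switches on. TCF7L1 belongs to the TCF/LEF transcription factors, which bind DNA at Wnt-responsive genes, and it acts there mainly as a repressor. Cells were kept for 48 h in primitive streak (PS) differentiation medium with 1 ug/ml Dox, for 48 h in PS medium alone, or untreated in mTeSR1, a medium that maintains pluripotency, with 3 arrays in each group. All 3 groups are the same transgenic line, no group received Dox in mTeSR1 or without the transgene, and the labels do not say whether the line is 1 clone or whether replicates were separate cultures.

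FGFs are signalling proteins that bind receptor tyrosine kinases (FGFR1 to FGFR4) together with heparan sulfate chains on the cell surface and switch on the RAS-ERK cascade. FGF2 is added to most human embryonic stem cell media to hold cells in the pluripotent state. During gastrulation, FGF4, FGF8 and FGF17 are made in or beside the primitive streak, and in mouse embryos FGF8 is needed for cells to move away from it. FGF8, FGF17 and FGF18 form 1 subfamily and FGF7 and FGF10 belong to another, whose members bind the epithelial form of FGFR2. FGF19 acts as a hormone through FGFR4 and the co-receptor KLB, and FGF13 is an FGF homologous factor that stays inside the cell and binds sodium channels and microtubules instead of receptors.

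Deposited intensities per array had medians from 200.4 to 216 and ran from 2.47e-05 to 57102. The 7 measured pluripotency markers summed to 27983 to 29145 with Dox, 21226 to 23417 in PS medium and 31305 to 32834 in untreated cells, and no listed marker was at 0. POU5F1, NANOG and TDGF1 were listed but not measured. SOX2, which changed most of the 7 between Dox and PS medium, read 3499 to 3711 with Dox and 579 to 974 in PS medium. In untreated cells SOX2 read 3898 to 4561. The 10 primitive streak markers summed to 15177 to 24197 with Dox, 76616 to 87005 in PS medium and 1941 to 1976 in untreated cells. Most of the first 2 sums was EOMES, at 9529 to 15554.5 with Dox and 50981 to 57102 in PS medium. TCF7L1 itself read 13100.2, 12433 and 2699 on the Dox arrays, against 1275, 1542 and 1611 in PS medium and 3718, 3878 and 3572 in untreated cells. Dox replicate 3 therefore stood apart with 1.83 times the mean of the PS arrays and 0.725 times that of the untreated arrays, and the rise over PS medium was 2.39 ± 0.47 with all arrays (log2 ± SE, limma adjusted p = 0.00464) and 3.14 without it. The values of the 9 FGF genes with Dox are given with and without it, and for the rest of the pathway the calls it changes.

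The comparison of PS medium with Dox against PS medium alone asks what changed when TCF7L1 was induced during differentiation. Of the 9 FGF genes, 2 rose (FGF7 and FGF18), 4 fell (FGF17, FGF8, FGF4 and FGF19) and FGF2, FGF10 and FGF13 did not pass the test. The test was limma on log2(intensity + 16) after quantile normalization, with Benjamini-Hochberg adjustment over 18417 genes and a threshold of 0.05. Over all genes 17.3% passed, 8.91% higher and 8.44% lower. The median log2 difference of the 9 genes was -0.19, beside 0.002 over all genes. After normalization 6 of the 9 had arrays with and without Dox that did not overlap, as 30.9% of all genes did. In RNA from a whole culture, fewer cells making a ligand and less RNA per cell cannot be told apart.

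**Figure D1:**
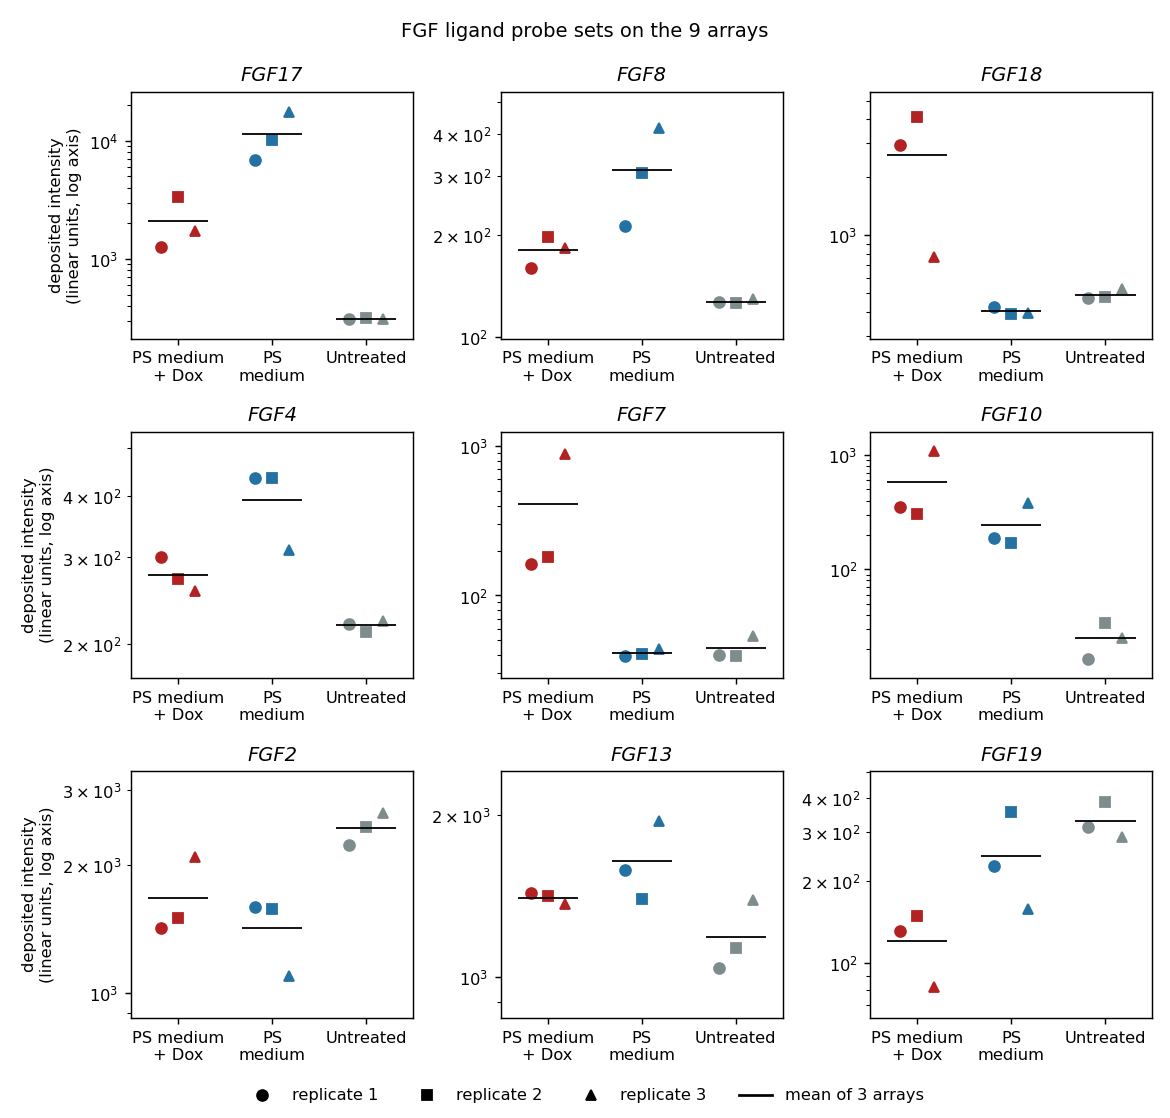
Deposited intensity (linear units on a log axis, scaled separately in each panel) of the 9 FGF probe sets on each array, with PS medium plus Dox at left, PS medium in the middle and untreated cells at right; symbols mark the replicate number and lines the mean of 3 arrays. FGF17 and FGF8 peak in PS medium, FGF18 and FGF7 are high with Dox, and Dox replicate 3 is the lowest Dox array for FGF18 and the highest for FGF7 and FGF10.

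FGF17, a ligand of the gastrulating embryo and later the midbrain-hindbrain border, had the largest fall. It read 1251, 3320 and 1726 on the Dox arrays, against 6827, 10117 and 17533 in PS medium and 311, 316 and 311 in untreated cells. The group means were 2099 ± 1084 with Dox, 11493 ± 5484 in PS medium and 313 ± 3.03 in untreated cells (SD, n = 3 each). All 3 groups were apart, with the Dox arrays between the other two. The difference between Dox and PS medium was -2.42 ± 0.35 on the log2 scale (SE, n = 3 per group, 5.35-fold lower, limma adjusted p = 0.000718), and without Dox replicate 3 it was -2.34 (adjusted p = 0.00288). Within replicate numbers, the Dox array had 0.183, 0.328 and 0.098 times the intensity of its PS partner. Of the 10 primitive streak markers 8 fell with Dox against PS medium, as 8.44% of all genes did. In PS medium against untreated cells 10 rose, as 14.2% of all genes did. The part of these markers in the values of FGF17 and FGF8 was not tested.

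FGF8, its subfamily relative and the ligand most tied to streak exit in the mouse, moved the same way on a smaller scale. Its intensities were 160, 198 and 183 with Dox, against 213, 306 and 418 in PS medium and 127, 126 and 129 in untreated cells. The highest Dox array was close below the lowest PS array, and the PS arrays were spread widely. The log2 difference of Dox against PS medium was -0.69 ± 0.19 (limma adjusted p = 0.0278). That call was lost without PS replicate 2 (adjusted p = 0.0708) or 3 (0.0637), without Dox replicate 1 (0.107) or 3 (-0.68, 0.0606), and when only these 2 groups were fitted (0.0731).

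FGF4, a ligand first known as an oncogene and made by pluripotent cells and the streak, read 300.04, 271 and 256 with Dox, 434, 434 and 310 in PS medium, and 219, 212 and 223 in untreated cells. The Dox arrays lay between the other groups and touched neither, though PS replicate 3 came close to Dox replicate 1. Its log2 difference with Dox was -0.47 ± 0.13 (limma adjusted p = 0.0247). That call was lost without PS replicate 1 (adjusted p = 0.0976) or 2 (0.0856), without Dox replicate 2 (0.0569) or 3 (-0.41, 0.0761), and when only these 2 groups were fitted (0.0682).

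FGF19, the endocrine ligand, had 131, 148 and 81.7 with Dox, against 227, 356 and 157 in PS medium and 314, 387 and 288 in untreated cells. Its lowest arrays were the Dox arrays, and its highest Dox array was just under its lowest PS array. The log2 difference with Dox was -0.91 ± 0.27 (limma adjusted p = 0.0421), the weakest of the 6 calls. It was lost without untreated replicate 1 (adjusted p = 0.0661), 2 (0.0532) or 3 (0.0573), without PS replicate 1 (0.0890) or 2 (0.120), without Dox replicate 1 (0.0865) or 3 (-0.67, 0.127), and when only these 2 groups were fitted (0.0861).

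FGF18, the third member of the FGF8 subfamily and a ligand of lung and skeletal growth, went the opposite way to its relatives. It read 2933, 4096 and 774 on the Dox arrays, against 423, 392 and 397 in PS medium and 473, 478 and 526 in untreated cells. Dox replicates 1 and 2 were far above every other array, and replicate 3, the array with least TCF7L1, was closer to the groups without Dox while still above them. Means were 2601 ± 1686 with Dox, 404 ± 16.3 in PS medium and 492 ± 29.5 in untreated cells (SD, n = 3 each). The rise over PS medium was 2.35 ± 0.45 on the log2 scale (SE, n = 3 per group, 5.09-fold, limma adjusted p = 0.00447). Without Dox replicate 3 it was 3.06 (8.37-fold, adjusted p = 4.24e-07). The SE with all arrays comes from 1 spread shared by the 3 groups. The log2 SD was 1.26 with Dox, 0.06 in PS medium and 0.09 in untreated cells, so this SE understates the spread with Dox.

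FGF7, known as keratinocyte growth factor and made by mesenchyme for nearby epithelium, rose as well but was highest on a different Dox array. It read 162, 181 and 891 with Dox, against 39.1, 40.7 and 43.7 in PS medium and 40.1, 39.1 and 53.3 in untreated cells. Means were 411 ± 416 with Dox, 41.2 ± 2.36 in PS medium and 44.2 ± 7.95 in untreated cells (SD, n = 3 each). Here Dox replicate 3 was the highest array of all, and both groups without Dox were dim and overlapped. The rise over PS medium was 2.48 ± 0.48 on the log2 scale (5.57-fold, limma adjusted p = 0.00427). Without Dox replicate 3 it was 1.72 (3.30-fold, adjusted p = 1.60e-05), and with 64 in place of 16 added before taking logs it was 1.84 (3.59-fold). The log2 SD of FGF7 was 1.31 with Dox, 0.09 in PS medium and 0.16 in untreated cells. Its SE too shares 1 spread over the 3 groups and understates the spread with Dox. RNA of the near-identical FGF7 pseudogenes could add to this probe set, which was not tested.

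FGF10, the mesenchymal ligand of limb and lung buds and the closest relative of FGF7 here, was also highest on Dox replicate 3. It read 350, 304 and 1080 with Dox, against 189, 172 and 378 in PS medium and 16.5, 34.0 and 25.0 in untreated cells. PS replicate 3 lay above Dox replicates 1 and 2, so the groups with and without Dox overlapped. Within replicate numbers, each Dox array was above its PS partner, by 1.85, 1.77 and 2.86 times. The log2 difference was 1.03 ± 0.42 and did not pass (limma adjusted p = 0.133, 95% interval 0.10 to 1.96 before adjustment). With the replicate number as a block it passed (adjusted p = 0.0339), and without Dox replicate 3 it was 0.47 (adjusted p = 0.329).

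The bases before the annotated gene start are shown for the 3 members with the largest positive differences with Dox, because the induced factor is a DNA-binding protein. The windows come from RefSeq, build GRCh38.p14, where 5 of the 9 genes had an entry. The genes without an entry, FGF4, FGF8, FGF17 and FGF19, are those that fell with Dox, so no window of a falling member could be read. The windows shown cover the 250 bases before the start, FGF18 at chr5:171419397-171419646 on the plus strand, FGF7 at chr15:49422992-49423241 on the plus strand and FGF10 at chr5:44389421-44389670 on the minus strand. Capitals mark the TCF/LEF core CAAAG on either strand, and in FGF18 the longer match ATCAAAG that contains it.
FGF18: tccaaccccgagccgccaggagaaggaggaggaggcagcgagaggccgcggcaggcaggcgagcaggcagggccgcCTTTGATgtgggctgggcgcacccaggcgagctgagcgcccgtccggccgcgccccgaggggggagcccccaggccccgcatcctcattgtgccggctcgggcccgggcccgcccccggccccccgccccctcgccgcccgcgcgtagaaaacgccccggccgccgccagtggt
FGF7: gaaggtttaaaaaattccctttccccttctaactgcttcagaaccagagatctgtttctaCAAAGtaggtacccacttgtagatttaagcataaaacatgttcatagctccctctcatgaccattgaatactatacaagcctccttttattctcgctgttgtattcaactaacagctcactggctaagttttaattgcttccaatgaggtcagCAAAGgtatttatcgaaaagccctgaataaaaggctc
FGF10: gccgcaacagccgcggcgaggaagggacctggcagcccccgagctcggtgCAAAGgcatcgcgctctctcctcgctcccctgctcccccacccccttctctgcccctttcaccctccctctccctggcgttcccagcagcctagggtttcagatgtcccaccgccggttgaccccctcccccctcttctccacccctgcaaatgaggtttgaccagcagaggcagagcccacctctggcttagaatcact
The FGF18 window held ATCAAAG, read on the opposite strand, 174 to 168 bases before the start. ATCAAAG or TTCAAAG on either strand was present in 5.94% of 35116 such windows. FGF7 held the core CAAAG at 190 to 186 and 37 to 33 bases before its start and FGF10 at 200 to 196, both on the gene's strand, and 42.1% of all windows held that core. FGF13, which did not pass with Dox, has 2 windows that held the core at 86 to 82 and at 189 to 185 bases before the start, and the FGF2 window held none. The windows also differ in base composition, with 78.8% G and C in FGF18, 65.6% in FGF10 and 38.4% in FGF7. A match of letters is a description and not a binding site.

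Markers of fibroblasts, cells known to make FGF7, were read beside these values. The 8 markers summed to 3224 to 4016 with Dox, 3199.9 to 3492 in PS medium and 6075 to 6305 in untreated cells. THY1 alone read 4130 to 4358 in untreated cells. With Dox over PS medium 1 of the 8 rose and THY1 fell, beside 8.91% higher and 8.44% lower over all genes. The riser was POSTN, a secreted matrix protein, at 182, 178 and 785 on the Dox arrays, against 63.3, 73.5 and 34.5 in PS medium and 40.8, 50.3 and 37.1 in untreated cells. The collagen-binding proteoglycans of the list stayed dim, with DCN between 21.7 and 25.6 and LUM between 32.0 and 48.2 with Dox, against 19.9 to 31.5 and 38.6 to 50.7 in PS medium. Of 9 measured amnion and trophectoderm markers 7 rose with Dox over PS medium, as 8.91% of all genes did, while TFAP2B and CDX2 did not pass. The 9 summed to 27632 to 30801 with Dox, against 12221 to 14559 in PS medium. TFAP2A alone read 16479 to 18260 with Dox. Among the risers, KRT7 (log2 -0.07) and IGFBP3 (0.17) with Dox did not pass against untreated cells. The part of either cell type in the FGF values was not tested.

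FGF2 and FGF13 did not pass between Dox and PS medium. FGF2, the ligand of stem cell media, read 1425, 1499 and 2084 with Dox, against 1589.5, 1578 and 1097 in PS medium. These groups overlapped, and the log2 difference of 0.25 had a 95% interval of -0.12 to 0.61 (limma adjusted p = 0.391), or 0.07 without Dox replicate 3 (0.811). FGF13 read 1429.7, 1416 and 1369 with Dox, against 1583, 1396 and 1946 in PS medium, which overlapped too. Its log2 difference was -0.19 with an interval of -0.47 to 0.08 (adjusted p = 0.364), or -0.18 without Dox replicate 3 (0.479).

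**Figure D2:**
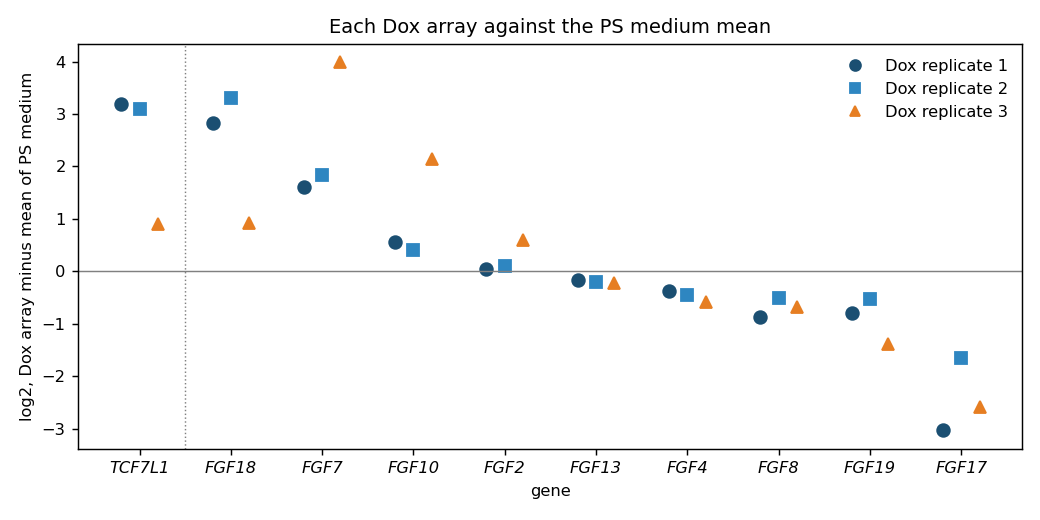
Log2 distance of each Dox array from the mean of the PS medium arrays for TCF7L1 (left of the dotted line) and the 9 FGF genes, after normalization, with symbols and colours for Dox replicates 1, 2 and 3. Dox replicate 3 lies lowest for TCF7L1 (0.90), FGF18 (0.91), FGF13 (-0.22), FGF4 (-0.58) and FGF19 (-1.38), and highest for FGF7 (3.98), FGF10 (2.14) and FGF2 (0.59).

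The Dox array with least TCF7L1 was thus not displaced in 1 direction across the family. Relative to the PS mean, TCF7L1 stood at 3.18, 3.09 and 0.90 on the log2 scale on Dox replicates 1, 2 and 3. FGF18 stood at 2.83, 3.30 and 0.91, and so had its smallest distance on replicate 3. FGF7 stood at 1.61, 1.84 and 3.98 and FGF10 at 0.55, 0.40 and 2.14, with their largest distance there. FGF17 stood at -3.03, -1.64 and -2.59 and FGF8 at -0.86, -0.50 and -0.69, with replicate 3 between the others. FGF19 stood at -0.80, -0.53 and -1.38 and FGF4 at -0.37, -0.46 and -0.58, lowest on replicate 3, and FGF13 differed little between arrays, at -0.16, -0.21 and -0.22. With 3 Dox arrays, a relation of any ligand to the level of TCF7L1 was not tested.

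Setting PS medium against untreated cells shows where the family stood before Dox is considered. Of the 9 genes, 5 rose (FGF17, FGF10, FGF8, FGF4 and FGF13), FGF2 fell, and FGF7, FGF18 and FGF19 did not pass, beside 29.8% of all genes passing (14.2% higher and 15.7% lower). The median log2 difference was 0.43, against -0.0055 over all genes, and 6 of the 9 did not overlap between the groups, as 43.3% of all genes did. FGF17 rose by 5.0 ± 0.35 on the log2 scale (31.9-fold, limma adjusted p = 2.13e-06), which makes it the largest change of the family, with no PS array under 6827 and no untreated array over 316. FGF10 rose by 2.63 ± 0.42 (6.19-fold, adjusted p = 0.000789), from dim values, and adding 64 before taking logs gave 3.37-fold, while adding 1 gave 9.43-fold. FGF8 rose by 1.18 ± 0.19 (2.26-fold, adjusted p = 0.000751) and FGF4 by 0.81 ± 0.13 (1.75-fold, adjusted p = 0.000645).

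FGF13 read 1583, 1396 and 1946 in PS medium, against 1040.4, 1130.3 and 1388 in untreated cells. The lowest PS array barely exceeded the highest untreated array in deposited units, and after normalization the groups overlapped. Its rise of 0.43 ± 0.13 passed (limma adjusted p = 0.0258) but was lost without untreated replicate 1 (adjusted p = 0.112) or 2 (0.0863) and without PS replicate 1 (0.0571) or 3 (0.0815). FGF2 was lower in PS medium by -0.81 ± 0.17 (log2, 1.75-fold, adjusted p = 0.00371), and its untreated arrays, at 2230.1, 2455 and 2642, were all above its PS arrays. All PS arrays of FGF18 were below its untreated arrays, yet its difference of -0.29 did not pass (95% interval -1.30 to 0.72, adjusted p = 0.698). FGF7 differed by -0.04 (-1.09 to 1.02, adjusted p = 0.969) and FGF19 by -0.44 (-1.03 to 0.16, adjusted p = 0.277). The fit shares 1 spread over the 3 groups, so these intervals also carry the spread of the Dox arrays.

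**Figure D3:**
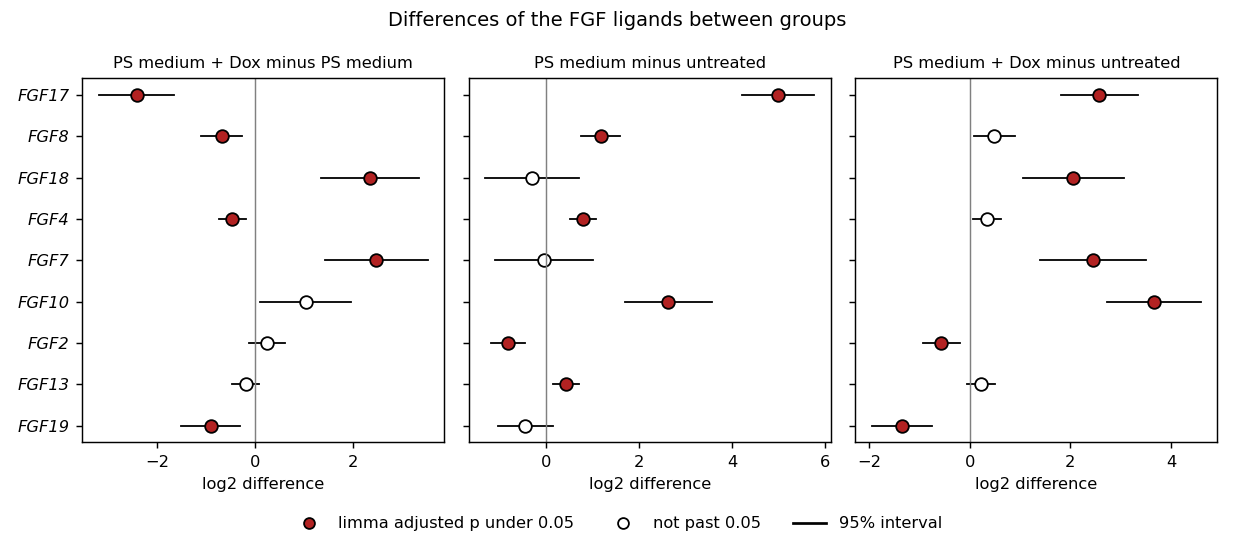
Log2 differences (points) with 95% intervals (lines) of the 9 FGF genes for PS medium with Dox minus PS medium, PS medium minus untreated, and PS medium with Dox minus untreated, each panel on its own axis; filled points have a limma adjusted p under 0.05. FGF17 is at -2.42, 5.0 and 2.58 in the 3 panels and FGF18 at 2.35, -0.29 and 2.06.

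PS medium with Dox was also set against untreated cells, a comparison that shares its arrays with both others. Here 4 genes were higher (FGF10, FGF17, FGF7 and FGF18), FGF19 and FGF2 were lower, and FGF4, FGF8 and FGF13 did not pass, beside 30.3% of all genes (15.3% higher and 14.9% lower). The median log2 difference was 0.49, against -3e-04 over all genes, and 8 of the 9 did not overlap, as 45% of all genes did. FGF10 was 12.6-fold higher (3.66 ± 0.42, limma adjusted p = 8.51e-05), or 6.34-fold when 64 was added before taking logs and 19.9-fold when 1 was added, and it was 8.6-fold higher without Dox replicate 3 (adjusted p = 3.17e-05). FGF17 was still 5.97-fold higher than in untreated cells (2.58 ± 0.35, adjusted p = 0.000266), or 6.32-fold without Dox replicate 3 (0.000802). FGF7 was 5.43-fold higher (adjusted p = 0.00277), or 3.22-fold without Dox replicate 3 and 3.53-fold with 64 added. FGF18 was 4.17-fold higher (adjusted p = 0.00570), or 6.84-fold without Dox replicate 3.

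FGF19 was 2.53-fold lower with Dox than in untreated cells (-1.34 ± 0.27, limma adjusted p = 0.00338), so its levels ran lowest with Dox, then PS medium, then untreated, with the last 2 not passing between them. Without Dox replicate 3 the difference was -1.10 (adjusted p = 0.0110). FGF2 was lower by 0.57 on the log2 scale with Dox than in untreated cells (-0.57 ± 0.17, adjusted p = 0.0253), a call lost without untreated replicate 2 (adjusted p = 0.0636) or 3 (0.0881) or Dox replicate 1 (0.0961) or 2 (0.0837), while without Dox replicate 3 it was -0.74 (0.00451). FGF8 and FGF4 differed from untreated cells by 0.49 ± 0.19 (adjusted p = 0.0720) and 0.34 ± 0.13 (adjusted p = 0.0660). Both passed with the replicate number as a block (adjusted p = 0.0284 for each) and when only these 2 groups were fitted (0.00560 and 0.0132). FGF8 also passed without PS replicate 1 (0.0132) or 3 (0.0193), and FGF4 without PS replicate 3 (0.00721). Neither passed without Dox replicate 3, at 0.49 (0.127) for FGF8 and 0.39 (0.0635) for FGF4. FGF13 differed by 0.23 (95% interval -0.05 to 0.51, adjusted p = 0.202), or 0.24 without Dox replicate 3 (0.262).

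Profiles were also compared over the 9 arrays by the root mean square distance between log2 values centred on each gene's mean. Among the FGF genes themselves the closest pairs were FGF4 with FGF13 (0.30), FGF4 with FGF8 (0.38) and FGF8 with FGF13 (0.39), genes whose own distance from a flat profile was small, as for FGF8 (0.54) and FGF4 (0.36). FGF17 lay far from FGF7 (2.47) and FGF18 (2.47). The FGF genes nearest to FGF7 were FGF10 (1.14) and FGF18 (1.215), beside 1.32 for FGF7 from a flat profile. Outside these 9 genes, those nearest to FGF17 were PLPP4, a lipid phosphatase (0.32), and TRPA1, an ion channel (0.40). TRPA1 read 93.5, 174 and 227 with Dox, against 694, 842 and 1587 in PS medium and 23.5, 33.1 and 28.2 in untreated cells. The nearest to FGF18 were CRYAB, a small heat shock protein (0.31), and ADGRA2, an adhesion receptor (0.37). CRYAB read 365, 663 and 203 with Dox, against 57.3, 65.6 and 73.2 in PS medium and 75.8, 88.4 and 82.1 in untreated cells.

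FGF7, at 1.32 from a flat profile, had as nearest genes POSTN (0.33) and CYSLTR2, a leukotriene receptor (0.34). CYSLTR2 read 57.5, 42.4 and 698 with Dox, against 12.3, 8.48 and 12.2 in PS medium and 9.93, 8.57 and 14.1 in untreated cells, and so was highest on Dox replicate 3 as FGF7 was. The nearest to FGF8 were CPE, a prohormone-processing carboxypeptidase (0.10), and ADGRF2P (0.12). The nearest to FGF4 were GDAP1L1 (0.07) and STIM2, a calcium sensor of the endoplasmic reticulum (0.10). The nearest to FGF19 were MDGA2, a cell adhesion protein of synapses, and VAV3, a guanine nucleotide exchange factor (0.21 each).

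The further lists of the pathway had these median log2 differences with Dox against PS medium, at -0.09 for other FGF genes, 0.17 for receptors, -0.03 for partners, 0.09 for heparan sulfate genes and -0.04 for transducers, beside 0.002. Of the other 13 FGF family genes, with Dox against PS medium 1 rose and 2 fell, beside the 17.3% of all genes that passed: FGF9 (2.25-fold higher), FGF12, an intracellular relative of FGF13 (1.89-fold lower, limma adjusted p = 0.000155), and FGF5 (1.21-fold lower, adjusted p = 0.0496). FGF9 read 56.3, 75.9 and 188 with Dox, against 45.7, 29.7 and 27.4 in PS medium and 42.7, 44.7 and 57.7 in untreated cells, so it too was highest on Dox replicate 3. Its call (adjusted p = 0.0217) was lost under 3 of 17 alternatives, though not without Dox replicate 3 (1.67-fold, 0.0162). The call of FGF5 was lost under 13 of 18, that one included (0.108). In PS medium against untreated cells 2 rose and 0 fell by limma, beside the 29.8% of all genes that passed: FGF14, another intracellular member (4.07-fold), and FGF5 (1.24-fold). With Dox against untreated cells FGF14 (3.32-fold) and FGF1 (1.30-fold) were higher and FGF12 (2.06-fold) and FGF23 (1.30-fold) lower, beside 30.3% of all genes that passed. The call of FGF1 was lost without Dox replicate 3 (0.0871), and FGF20 became a call (1.21-fold lower, 0.0363).

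Receptor changes lay between 1.22-fold and 3.04-fold where they passed. In PS medium against untreated cells all 5 passed, as 29.8% of all genes did. FGFR3 (2.70-fold) and the decoy receptor FGFRL1 (1.54-fold) were higher and FGFR1 (1.83-fold), FGFR2 (1.72-fold) and FGFR4 (log2 -0.53) lower. With Dox against PS medium FGFR2, the receptor whose epithelial form binds FGF7 and FGF10, rose 1.59-fold (log2 0.67 ± 0.07, limma adjusted p = 0.000116). Its arrays read 1284 to 1359.6 with Dox, against 749 to 921 in PS medium and 1401 to 1424 in untreated cells, without overlap. FGFR1 rose 1.22-fold (adjusted p = 0.0129), and FGFR4, the receptor of FGF19, fell by 0.34 on the log2 scale (adjusted p = 0.0314), a call lost under 8 of 18 alternatives, among them without Dox replicate 3 (0.0950). KLB, the co-receptor of FGF19, read 68.8 to 77.9 with Dox, against 68.0 to 75.2 in PS medium and 67.9 to 90.8 in untreated cells, and did not pass in any comparison.

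**Figure D4:**
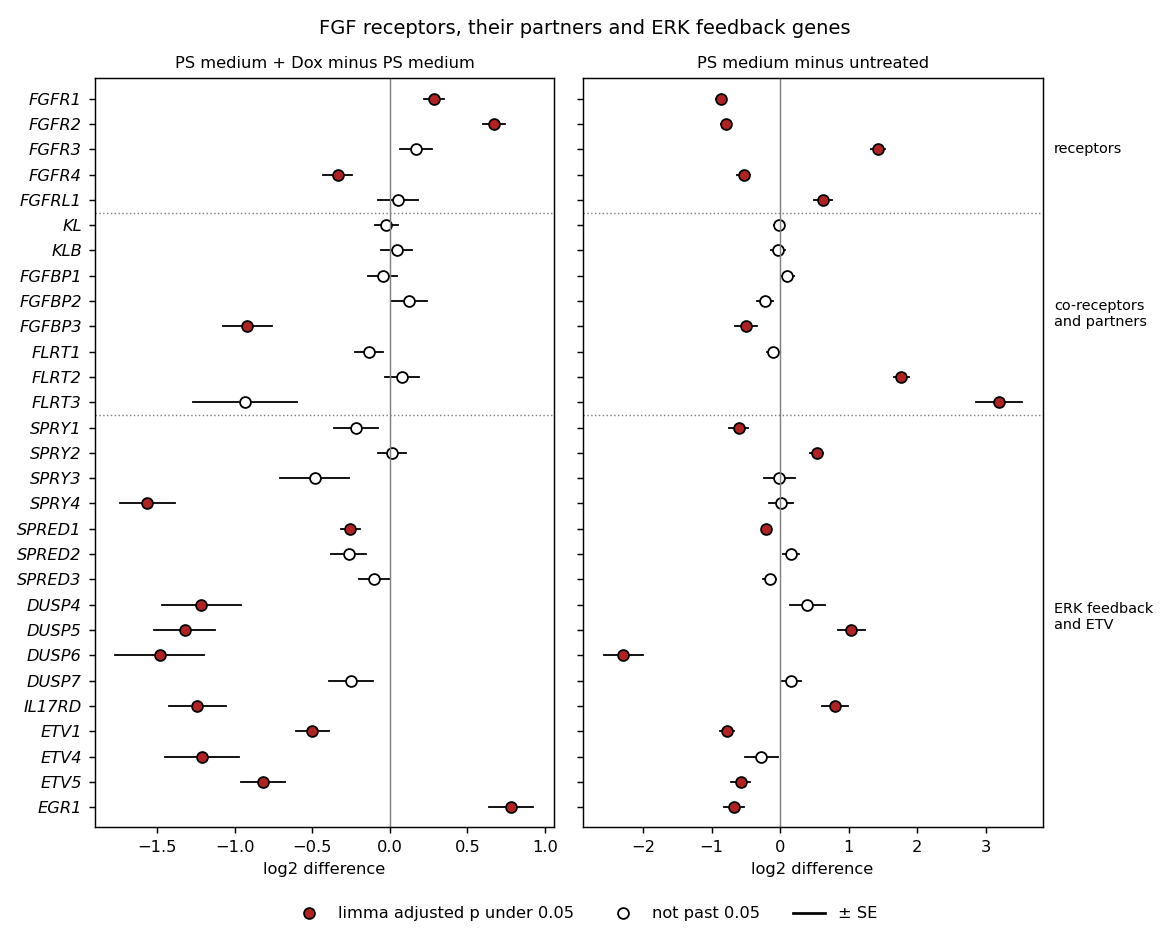
Log2 differences (points) with their SE (lines) of the 5 FGF receptors, 8 co-receptors, binding proteins and partners, and 16 ERK feedback and ETV genes, for PS medium with Dox minus PS medium (left) and PS medium minus untreated (right); filled points have a limma adjusted p under 0.05. At left 9 of the 16 feedback genes fell and EGR1 rose (0.78), beside 8.44% lower and 8.91% higher over all genes. At right FLRT3 has the largest rise (3.19) and DUSP6 the largest fall (-2.29).

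Of 8 measured co-receptors, binding proteins and receptor partners, 2 rose and 1 fell in PS medium against untreated cells, beside the 29.8% of all genes that passed. FLRT3, a membrane protein that binds FGF receptors, rose 9.14-fold and its relative FLRT2 3.40-fold, while FGFBP3, a carrier of secreted FGFs, fell by 0.50 on the log2 scale, a call lost under 6 of 18 alternatives. With Dox against PS medium FGFBP3 was lower by 0.92 on the log2 scale (1.89-fold, limma adjusted p = 0.00223). In that comparison 0 of the 8 rose by limma, as 8.91% of all genes did. FLRT3 was at -0.94 ± 0.33 (adjusted p = 0.0838), and without Dox replicate 3 it passed at -1.30 (0.0122). With Dox against untreated cells FLRT3 (4.78-fold) and FLRT2 (3.59-fold) were higher and FGFBP3 (2.67-fold) lower, and without Dox replicate 3 FLRT1 also passed as lower (1.24-fold, 0.0280).

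Of 22 heparan sulfate proteoglycans and enzymes that build the chains, 8 rose and 3 fell with Dox against PS medium. Over all genes 8.91% were higher and 8.44% lower. GPC3, a glypican, rose 2.09-fold, SDC2, a syndecan, 1.79-fold and HS6ST3, a 6-O-sulfotransferase, 1.49-fold, while SDC3 fell by 0.49 on the log2 scale. In PS medium against untreated cells 4 rose and 8 fell, beside 14.2% higher and 15.7% lower over all genes. Among them were GPC3 (2.10-fold lower) and GLCE, the glucuronic acid epimerase (1.86-fold lower), with NDST1, an N-sulfotransferase (1.65-fold), and GPC6 (1.63-fold) higher. GPC3 with Dox did not differ from untreated cells by the test (log2 -0.01, adjusted p = 0.968). Without Dox replicate 3, 7 rose and 2 fell against PS medium, with GPC6 (0.0514) and GPC2 (0.0705) lost.

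Of 13 measured transducers, 1 rose and 2 fell with Dox against PS medium, beside the 17.3% of all genes that passed. GAB1, a docking protein, rose 1.35-fold, MAP2K1, the kinase that activates ERK, fell by 0.62 on the log2 scale and SHC1, an adaptor, by 0.28. In PS medium against untreated cells 4 rose and 0 fell by limma, beside the 29.8% of all genes that passed. The largest rise was that of SOS2, an exchange factor for RAS (1.87-fold), with HRAS, GRB2 and MAPK3 at 1.14-fold to 1.22-fold. The calls of those last 3 were each lost under 4 of 18 alternatives. The 3 calls of Dox against PS medium held without Dox replicate 3, and HRAS also passed as higher than in untreated cells (1.21-fold, 0.0457).

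ERK feedback genes are raised by ERK activity in many cells and are often read beside FGF ligands. With Dox against PS medium 9 of 16 fell and 1 rose, beside 8.44% lower and 8.91% higher over all genes. Their median log2 difference was -0.49, against 0.002 over all genes. SPRY4, an inhibitor of RAS-ERK signalling, read 892 to 1627 with Dox, against 3545 to 3919.7 in PS medium and 3084 to 4098 in untreated cells (-1.57 ± 0.18, limma adjusted p = 0.000141). DUSP6, an ERK phosphatase, was at -1.49 ± 0.28, DUSP5 at -1.325 and IL17RD, a membrane inhibitor of FGF signalling, at -1.24. Again 9 fell and 1 rose without Dox replicate 3, with SPRY4 at -1.34 and DUSP6 at -1.22 (0.0119), while DUSP4 lost its call against untreated cells (0.101). In PS medium against untreated cells 6 fell and 3 rose, beside 15.7% lower and 14.2% higher over all genes. DUSP6 was 4.90-fold lower while FGF17, FGF8 and FGF4 were higher, and DUSP5 (2.05-fold) and IL17RD (1.74-fold) rose. ETV1 was 1.71-fold lower. With Dox against untreated cells 8 of the 16 were lower and 1 higher, beside 14.9% lower and 15.3% higher over all genes. The largest falls there were those of DUSP6 (log2 -3.78), SPRY4 (-1.56), ETV4 (-1.49) and ETV5 (-1.40). DUSP6 read 145 to 281 with Dox, against 421 to 904 in PS medium and 2427 to 3582 in untreated cells, and so was lowest with Dox and highest in untreated cells.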

How the data were processed

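RNA of 9 samples of the H9-TCF7L1 line was hybridised to Affymetrix arrays, 3 per group. Each deposited intensity is linear, 1 per probe set, and was made with Affymetrix Expression Console 1.1.1 and PLIER 2.0, per the submitters' processing notes. Their background correction and normalization between arrays: not given in the sources used here.

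Of 33297 probe sets, 19460 had 1 gene symbol, of which 19429 took the current symbol of GRCh38.p14 by gene number. Each gene was represented by its probe set with the highest mean, leaving 18417 genes. Values became log2(value + 16), so folds of dim genes are understated, and were quantile-normalized because array medians spanned 0.103 (log2), over a limit of 0.1. Arrays were fitted with 1 mean per group and 6 residual degrees of freedom (limma 3.58.1, eBayes with a trend, in R 4.3.3). Plots used matplotlib 3.10.9 under Python 3.11.15. Because separate cultures are not stated, p-values reflect the spread among these arrays alone, which may be technical, and 3 arrays per group limit the precision.

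Same-numbered arrays deviated together between Dox and PS medium (correlations over genes 0.245, 0.428 and 0.2455) and between Dox and untreated cells (0.2458, 0.309 and 0.297). Between PS medium and untreated cells the correlations were 0.0857, 0.397 and 0.271, weakest for replicate 1. This pairing was taken from the data and not the labels, so blocked values are given where they change a call of the 9 FGF genes. For the rest of the pathway, calls gained with the block were not looked at. Tested on simulated data for Dox against PS medium over 18417 genes, the procedure recovered 96% of genes changed 2-fold and 97% changed 4-fold, with 7 false calls. The simulated noise was independent between arrays with the same spread in every group, and genes were only raised, alike on every Dox array. Here same-numbered arrays deviated together, Dox replicate 3 stood apart, and the log2 SD of FGF7 was 1.31 with Dox and 0.09 in PS medium. These rates therefore do not measure the calls in this report. Named genes included all 9 members and the 2 nearest profiles of each member that passed with Dox. From each pathway list up to 4 passing genes per comparison with the largest changes were picked. For Dox against untreated cells, those of the receptors, heparan sulfate genes and transducers were not named in full. ANOS1, SDC4, NDST2, 6 transducers and the markers POU5F1, NANOG, TDGF1 and GABRP had no probe set with a single symbol. The members and lists were chosen with earlier results of these data known. Alternatives covered scaling, the log offset, a filter on dim genes, the choice of probe set, the replicate block, the groups fitted and leaving out each array.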

Additional observations from a re-analysis of the deposited data

Results flagged for a closer look

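Outside the 9 probe sets, FGF7 is also named on 6 probe sets that carry several symbols, among them the FGF7 pseudogenes FGF7P3 and FGF7P6. On 4 of these 6, all 3 Dox arrays were above all other arrays, and 3 of the 4 hold identical values. Probe set 8155487 averaged 379.3 ± 403 (SD, n = 3) with Dox, at 142 to 845 against 2.08 to 28.1 on the other 6 arrays. Probe set 8067839 averaged 342.5 ± 363, at 131 to 762 against 2.24 to 26.7. The remaining 2, which also name FAM88C and LERFS, read 102 to 131 with Dox, against 104.5 to 128 elsewhere, without separation. These probe sets cannot separate FGF7 from its pseudogenes.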

How the results depend on the processing

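Over 18 alternatives, 444 of 483 values of the 9 FGF genes kept their direction and their side of the threshold, and FGF7 had no value where the dimmest genes were left out. The number of FGF genes passing between Dox and PS medium was 6, and 3 when only these 2 groups were fitted, where FGF4, FGF8 and FGF19 were lost. Leaving out 1 array at a time gave 3 to 5 in that comparison, 5 to 7 between PS medium and untreated cells and 5 to 8 between Dox and untreated cells, and 2404 to 3074, 4165 to 5632 and 4167 to 6028 over all genes. The calls of FGF7, FGF17 and FGF18 with Dox against PS medium held under every alternative in which they were measured. Every alternative shared 1 spread over the groups it fitted, as the main fit did. FGF7 in PS medium against untreated cells, at -0.04 with all arrays, ran from -0.095 to 0.056 when 1 array was left out, positive without untreated replicate 3 (0.056) and PS replicate 1 (0.0069), and passed in none. Between PS medium and untreated cells, FGF19 passed without PS replicate 2 (adjusted p = 0.0455) and FGF18 when only these 2 groups were fitted (0.0258). With the replicate block 4481 genes passed between Dox and PS medium against 3195 without it, 6935 against 5495 between PS medium and untreated cells, and 7055 against 5572 between Dox and untreated cells. Same-numbered arrays of PS medium and untreated cells correlated at 0.0857, 0.397 and 0.271 for replicates 1 to 3. The highest correlations with another number were 0.0486, 0.0474 and -0.1007. In that comparison FGF19 passed with the block (0.0202). The block changed no FGF call other than those named for FGF4, FGF8, FGF10 and FGF19. The cause of these changes was not tested beyond the loss of arrays or of residual degrees of freedom.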
